A study of Mus musculus with 12 samples.

Results

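Monoamines and acetylcholine are cleared from brain tissue by enzymes that break them down and by transporters that carry them into cells, and the data were read for 6 genes of this kind. The genes were Maoa, Maob, Slc22a3, Slc29a4, Ache and Bche, taken by name from the 20989 gene loci measured in every library. Auditory cortex was dissected from acute coronal slices (350 µm) of 6 C57bl6/J mice at 4 weeks of age, and no transgene or genetic change is given for these mice. After 15 min of recovery in choline chloride buffer and 45 min of rest in artificial cerebrospinal fluid (aCSF), the hemispheres, parted along the midline, were treated differently for 1 h. The control hemisphere stayed in fresh aCSF. The other hemisphere was placed in cocktail aCSF, with 50 µM (-)-Bicuculline methiodide, 100 µM DL-Norepinephrin hydrochloride, 50 µM Carbamolylcholine chloride, 100 µM Dopamine hydrochloride, 40 µM Ascorbic Acid and 100 µM Serotonin hydrochloride. The methods of the study add a further rest of both hemispheres for 1 h in aCSF after the treatment, a step not found in the sample labels. By those methods the RNA was taken after this rest and not at the end of the treatment. Poly-A RNA of the 6 control and 6 cocktail hemispheres was sequenced, so that each mouse gave 1 library per group. The question put to these genes was how strongly a cortical slice expresses machinery that removes monoamines and acetylcholine. It was also asked whether 1 h of exposure to the cocktail altered its transcripts.

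Maoa and Maob encode monoamine oxidases A and B, enzymes of the outer mitochondrial membrane that oxidise serotonin, norepinephrine and dopamine. Serotonin and norepinephrine are handled chiefly by the A form, whereas dopamine is a substrate of both. Slc22a3 and Slc29a4 encode the organic cation transporter OCT3 and the plasma membrane monoamine transporter, which take up monoamines with low affinity and high capacity, unlike the high-affinity transporters of monoaminergic nerve endings. Ache encodes acetylcholinesterase, which ends cholinergic transmission, and Bche encodes butyrylcholinesterase, a related enzyme that splits a wider range of choline esters. The cholinergic agent of the cocktail, carbamoylcholine, resists hydrolysis by these enzymes, whereas its monoamines are substrates of the oxidases.

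Levels are given as FPKM, fragments scaled to transcript length and to the total on protein coding genes, so they can be compared between genes. The reads behind each FPKM, recovered from the interval deposited with it, summed to between 10601067 and 19768881 per control library and between 13544297 and 17643462 per cocktail library. Differences were fitted on log2(FPKM + 1) with limma, with the mouse as a block, at the 12032 loci whose FPKM averaged at least 1 over the libraries. Markers of excitatory neurons were high: 6 genes summed to 2460 to 2813 FPKM in control and 2355 to 2783 FPKM in cocktail libraries. For choroid plexus, 3 genes summed to 0.632 to 1.78 FPKM over all libraries, with Ttr at 0 in 11 of 12 and Kl at 0 in none. The 3 striatum markers found summed to 22.5 to 32.8 FPKM in control and 26.0 to 30.2 FPKM in cocktail libraries. These sums do not by themselves show the brain region, which is taken from the description of the dissection. Across 12 marker lists, 0 of 47 marker loci tested were called by limma and 0 by voom on the recovered reads, against 1.5% and 0.981% of all loci. In limma 5 of the 47 had an unadjusted p under 0.05 (8.05% of all loci), of which 3 were among the 4 meningeal fibroblast markers tested, a list with a median log2 fold change of 0.18 and summed levels of 11.4 to 17.9 FPKM in control and 14.6 to 19.6 FPKM in cocktail libraries. Its part in the results for the 6 genes was not tested. In these bulk samples, fewer cells of a type and less RNA per cell cannot be told apart. The activity-induced genes Fos, Fosb, Junb, Arc, Egr2 and Nr4a1 all rose in the cocktail, with log2 fold changes between 0.74 (Egr2) and 0.99 (Fos) and adjusted p from limma of at most 0.000132.

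The control library of mouse 1 stood apart from the other 11. Its median absolute deviation from the median of each locus was 0.176 on the log2 scale, against 0.0576 to 0.0807 in the others, and the deviation moved with the GC content of the transcript. Loci with a GC content under 45.7%, the lowest of 4 equal groups, had a median deviation of -0.31 in this library, and loci over 55.3% had 0.01. In the other libraries the lowest group lay between -0.02 and 0.06. The 6 genes span this range, from 38.3% GC in Bche and 40.4% in Maoa, through 45.3% in Maob and 52.0% in Slc22a3, to 60.1% in Slc29a4 and 60.4% in Ache. In control mouse 1, Maoa stood at 0.779 and Maob at 0.794 of the mean FPKM of the other 5 control libraries, while Slc29a4 stood at 1.297 and Ache at 1.308 times it. The low genes did not follow the order of GC content, with Slc22a3 at 0.673 and Bche at 0.856. In control mouse 1 these values rest on only 17 reads of Slc22a3 and 73 of Bche. What the library's GC dependence contributed to any single gene was not tested. With each library's GC trend removed, a fit chosen after the data were seen, none of the 4 genes tested was called, and the log2 fold changes were 0.02 for Maoa, -0.03 for Maob, -0.04 for Slc29a4 and -0.03 for Ache.

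**Figure D1:**
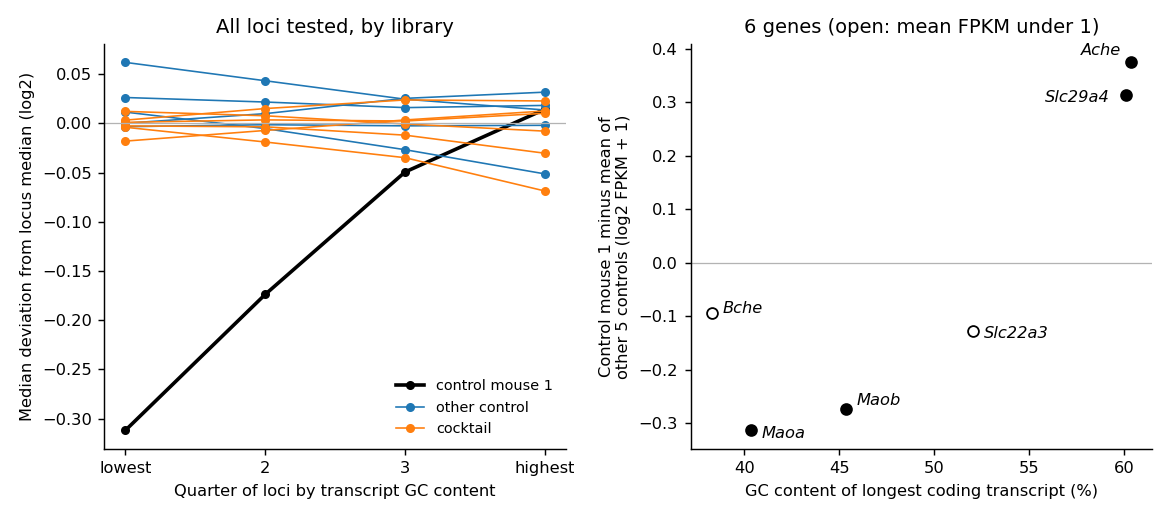
Left, the median deviation of each library from the locus median (log2, y axis) in 4 equal groups of the tested loci by transcript GC content (x axis), with 1 line per library. Right, the level of each of the 6 genes in control mouse 1 minus its mean in the other 5 control libraries (log2 FPKM + 1, y axis) against the GC content of its longest coding transcript (percent, x axis). Control mouse 1 is low for GC-poor loci, and Maoa (40.4% GC) lies at -0.31 while Ache (60.4% GC) lies at 0.37. The low genes Bche (38.3% GC) and Slc22a3 (52.0% GC) lie at -0.09 and -0.13, out of the order of GC content.

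Maoa and Maob are neighbours on chromosome X of mm10, from 16619698 to 16687812 and from 16709281 to 16817366, on opposite strands with their ends facing each other across 21468 bases. Slc29a4 (142702101 to 142722490) and Ache (137288254 to 137294466) lie on the plus strand of chromosome 5. Slc22a3 lies on the minus strand of chromosome 17 (12419974 to 12507704) and Bche on that of chromosome 3 (73635809 to 73708415). In GENCODE M21, an exon of Slc22a3 overlaps Plg and an exon of Ache overlaps Gm42456, in both cases on the other strand. The reads are described as strand specific, but whether strand was used when FPKM were estimated is not given in the sources used here.

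The start regions of the paired genes differ in base composition, which is why the sequences of both transporters and both cholinesterases are shown. RefSeq promoter windows (GRCm38.p6, 250 bases before to 50 after the start) were found for 5 of the 6 genes, all but Maob. The window of Ache has a GC content of 74% and that of Bche 39.3%, and the windows of Slc29a4 and Slc22a3 have 70% and 52%. The 250 bases before the start are printed 5′ to 3′ on the strand of the gene, with matches to the GC box (GGGCGG on either strand) in capitals. They are chr5:137288004-137288253 for Ache, chr3:73708416-73708665 for Bche, chr5:142701851-142702100 for Slc29a4 and chr17:12507705-12507954 for Slc22a3.
Ache: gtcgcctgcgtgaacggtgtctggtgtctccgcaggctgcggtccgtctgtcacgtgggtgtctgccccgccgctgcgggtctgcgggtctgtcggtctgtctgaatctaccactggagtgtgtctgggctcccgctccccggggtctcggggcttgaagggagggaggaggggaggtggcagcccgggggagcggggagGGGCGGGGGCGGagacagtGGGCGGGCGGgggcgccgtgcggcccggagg
Bche: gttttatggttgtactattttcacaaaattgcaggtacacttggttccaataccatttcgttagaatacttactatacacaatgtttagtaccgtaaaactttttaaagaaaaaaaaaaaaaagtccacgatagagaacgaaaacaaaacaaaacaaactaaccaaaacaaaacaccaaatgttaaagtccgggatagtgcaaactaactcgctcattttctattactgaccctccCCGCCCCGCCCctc
Slc29a4: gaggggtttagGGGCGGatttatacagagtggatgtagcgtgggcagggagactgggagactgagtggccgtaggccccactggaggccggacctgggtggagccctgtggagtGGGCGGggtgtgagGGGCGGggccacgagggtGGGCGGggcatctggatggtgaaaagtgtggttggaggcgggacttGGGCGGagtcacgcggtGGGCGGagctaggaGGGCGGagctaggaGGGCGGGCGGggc
Slc22a3: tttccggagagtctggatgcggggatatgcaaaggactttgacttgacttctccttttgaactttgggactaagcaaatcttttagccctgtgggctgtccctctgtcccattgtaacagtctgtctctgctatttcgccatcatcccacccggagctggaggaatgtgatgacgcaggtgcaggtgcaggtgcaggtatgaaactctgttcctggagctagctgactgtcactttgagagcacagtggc
The window of Slc29a4 holds 9 GC boxes, some of them overlapping, a number reached by 0.125% of the 32851 promoter windows in the table. Ache has 4, and 5.49% of windows have 4 or more, whereas Bche and Maoa have 2 each and Slc22a3 has 0. At least 1 GC box is present in 35.7% of all windows. In each pair the gene with more boxes was the one with the higher FPKM, an arrangement of 2 pairs from which nothing can be tested. The early growth response motif, searched as GCGTGGGCG or GCGGGGGCG on both strands, has 2 matches in Ache, 48 and 25 bases before the start, both overlapping GC boxes, and none in the other 4 windows. It is present in 3.47% of all windows. The AP-1 motif TGANTCA (7.81% of windows) and the cAMP response element TGACGTCA (1.79%) are in none of the 5. These matches are letters in a window and not sites shown to be bound.

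Of the 6 genes, 4 were expressed above the threshold for testing and 2 lay under it. Acetylcholinesterase was by far the most abundant. Ache had a lowest, median and highest level of 20.0, 22.7 and 28.9 FPKM in control libraries, which averaged 23.2 ± 3.01 (SD, n = 6), higher than 85.6% of all loci. The highest value is that of control mouse 1, and the other 5 averaged 22.1 ± 1.298 FPKM (SD). Bche had 0.689, 0.767 and 0.968 FPKM, with a mean of 0.785 ± 0.104 (SD, n = 6), and only 59 to 101 reads per library stand behind it. Without mouse 1 its mean was 0.804 ± 0.103 FPKM (SD). The coefficient of variation between the 6 control libraries, 13.2%, was close to the 12.2% that counting alone gives. Within single control libraries, the FPKM of Ache was 24.0 to 41.9 times that of Bche.

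The oxidases were expressed at similar levels, with Maoa ahead. Maoa had 6.16, 7.82 and 8.39 FPKM as lowest, median and highest control values, a mean of 7.61 ± 0.791 (SD, n = 6). The lowest value is again control mouse 1, and without it the mean was 7.90 ± 0.383 FPKM (SD). Maob had 4.54, 5.32 and 6.47 FPKM, a mean of 5.52 ± 0.733 (SD, n = 6), also lowest in control mouse 1, without which the mean was 5.72 ± 0.619 FPKM (SD). Maoa exceeded Maob in each of the 12 libraries, by 1.19 to 1.62 times in control and by 1.26 to 1.65 times in cocktail libraries.

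Of the low-affinity transporters, Slc29a4 was the main transcript and Slc22a3 was low. Slc29a4 had 3.25, 3.65 and 4.83 FPKM as lowest, median and highest control values, a mean of 3.91 ± 0.717 (SD, n = 6). Mice 1 and 3 formed the upper end, at 4.83 and 4.75 FPKM, and without mouse 1 the mean was 3.73 ± 0.623 FPKM (SD). Slc22a3 had 0.249, 0.308 and 0.619 FPKM, a mean of 0.354 ± 0.141 (SD, n = 6) and of 0.374 ± 0.148 (SD) without mouse 1, from 11 to 21 reads per library. Its coefficient of variation of 40.0% in control libraries compares with 25.5% from counting alone, and its single high value, in mouse 6, rests on 20 reads. The FPKM ratio of Slc29a4 to Slc22a3 ranged from 5.25 to 19.2 in control libraries, with only 12 to 20 reads of Slc22a3 in each.

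In control slices the order of the levels was Ache, Maoa, Maob, Slc29a4, Bche and Slc22a3. The steps between neighbours were 3.05-fold, 1.38-fold, 1.41-fold, 4.98-fold and 2.22-fold in mean FPKM. Compared within library by exact two-sided sign flips (a permutation test) of differences in log2(FPKM + 1), with adjustment over the 5 neighbours, 4 steps held in 6 of 6 libraries with an adjusted p of 0.0391. The step from Maob to Slc29a4 held in 5 of 6 libraries and did not pass (adjusted p = 0.0625 in the exact permutation test). In control mouse 1, where Maob was low and Slc29a4 high, the order of these genes was turned. In the cocktail libraries the mean levels kept the same order, and all 5 steps held in 6 of 6 libraries (exact permutation test, adjusted p = 0.0312). Since the order was read from the same values, these tests describe how steady it was from library to library.

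**Figure D2:**
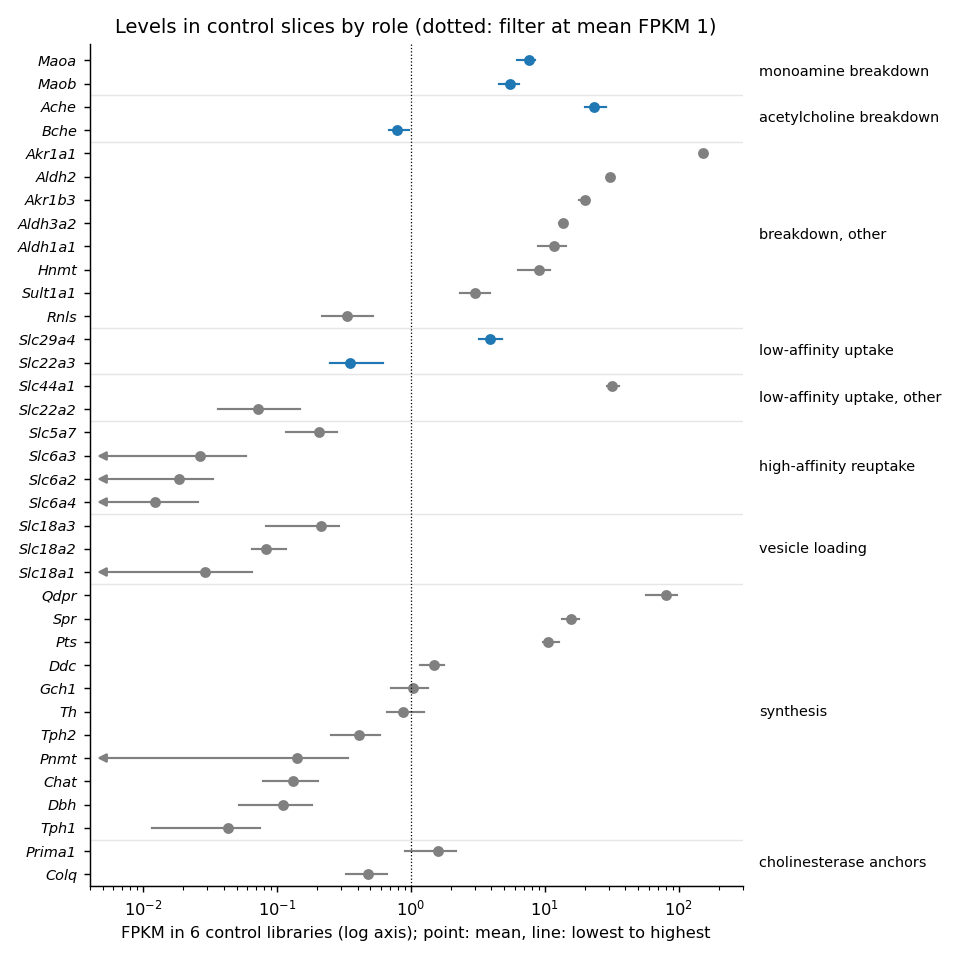
FPKM in the 6 control libraries (x axis, log scale) for the breakdown and uptake genes (blue) and other genes of monoamine and acetylcholine handling (grey), grouped by role; points are means, lines run from the lowest to the highest library, and an arrowhead marks a gene listed at 0 in at least 1 control library. The breakdown enzymes Ache (23.2 FPKM) and Aldh2 (30.8 FPKM) lie far to the right of the high-affinity transporters of monoamines, all under 0.1 FPKM. The breakdown genes Bche (0.785 FPKM) and Rnls (0.335 FPKM) lie under the threshold for testing.

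The levels can be set beside 32 other genes of the same pathways. The high-affinity transporters for norepinephrine, dopamine and serotonin (Slc6a2, Slc6a3 and Slc6a4) reached at most 0.0905 FPKM in any library, and Slc6a4 had 11 reads in all 12 libraries together. The choline transporter Slc5a7 had a mean of 0.207 FPKM in control. The transporters that load vesicles (Slc18a1, Slc18a2 and Slc18a3) reached at most 0.471 FPKM. Also under the threshold were, among others, the synthesis genes Th, Tph1, Tph2, Dbh, Pnmt and Chat, the cation transporter Slc22a2, renalase (Rnls) and the collagen tail of acetylcholinesterase (Colq), so that 17 genes in all, with control means of 0.0122 to 0.875 FPKM, were not tested. By contrast, 8 of the 9 other breakdown genes passed it. The aldehyde-clearing enzymes Aldh2 and Akr1a1 had 30.8 ± 1.26 and 152 ± 4.60 FPKM (SD, n = 6 control libraries each). Hnmt, which inactivates histamine, had 9.06 ± 1.55 FPKM (SD, n = 6). Prima1, the membrane anchor of acetylcholinesterase in brain, had 1.596 ± 0.537 FPKM (SD, n = 6), with only 8 to 36 reads per library. The summed FPKM of 8 genes that mark monoamine or acetylcholine neurons lay between 1.43 and 2.43 in control libraries and between 1.38 and 2.29 with the cocktail. All 4 high-affinity transporters and all 3 vesicle transporters were thus under the threshold, against 1 of the 9 other breakdown genes and 8957 of all 20989 loci. These are levels of RNA in the slice, and transporter protein in nerve endings was not measured.

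No difference between cocktail and control hemispheres was detected in any of the 6 genes. Limma called 0 of the 4 genes tested at an adjusted p under 0.05, against 1.5% of all 12032 loci (180 loci), and 0 of the 4 had an unadjusted p under 0.05. The fit with voom on the recovered reads also called 0, against 0.981% of loci. The median log2 fold change of the 4 genes was -0.03, against 0.01 over all loci tested. Control and cocktail values overlapped for all 6 genes (groups without overlap occurred at 0.914% of loci tested), and none of them moved in the same direction in all 6 mice.

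For the oxidases, the cocktail libraries held 7.38, 7.91 and 8.56 FPKM of Maoa as lowest, median and highest value, and 5.06, 5.22 and 6.31 FPKM of Maob. The range of Maob lies within that of the control libraries, and that of Maoa overlaps it over most of its length. The log2 fold change of Maoa was 0.05 (standard error 0.069, adjusted p = 0.912 from limma), with a 95% interval that runs from 0.933-fold to 1.15-fold, on the scale of FPKM + 1 like the other intervals given here. It was higher in 3 and lower in 3 mice, and the largest within-mouse difference was 0.42 on the log2 scale in mouse 1. Without mouse 1 the sign turned, to -0.02. The log2 fold change of Maob was -0.01 (standard error 0.062, adjusted p = 0.992 from limma), with an interval from 0.907-fold to 1.09-fold, and 3 mice moved each way. Without mouse 1 it was -0.04. With voom on the recovered reads the upper bound for Maoa was 1.25-fold.

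For the transporters, the cocktail libraries held 2.99, 3.47 and 5.25 FPKM of Slc29a4 and 0.252, 0.343 and 0.419 FPKM of Slc22a3 as lowest, median and highest value. The high end of Slc29a4 was mouse 3 in the cocktail, whose control hemisphere was high as well. Its log2 fold change was -0.06 (standard error 0.071, adjusted p = 0.891 from limma), with an interval from 0.860-fold to 1.07-fold. With voom on the recovered reads the interval was wider, from 0.737-fold to 1.09-fold. Slc29a4 was lower in 4 of 6 mice. The within-mouse difference was -0.39 in mouse 1, the lowest of the 6, and without mouse 1 the log2 fold change was 0.0041. Slc22a3 lay under the threshold and was fitted only with no filter on low values, where 0.704% of 17477 loci were called. Its log2 fold change there was -0.01 (standard error 0.038, adjusted p = 0.969 from limma). At such a low level, log2(FPKM + 1) understates both the change and the standard error of Slc22a3. Its within-mouse differences gave p = 0.8125 in an exact two-sided permutation test that flips their signs. Their mean was -0.01, and -0.03 without mouse 1. Counting alone gives a coefficient of variation of 25.4% for Slc22a3 in cocktail libraries, so that differences of that size between single libraries cannot be resolved.

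For the cholinesterases, the cocktail libraries held 20.9, 22.1 and 23.7 FPKM of Ache and 0.723, 0.873 and 1.06 FPKM of Bche as lowest, median and highest value. The mean of Ache was 22.1 ± 1.12 FPKM (SD, n = 6) in the cocktail, almost the mean of the 5 control libraries other than mouse 1. Its log2 fold change was -0.06 (standard error 0.061, adjusted p = 0.885 from limma), with an interval from 0.873-fold to 1.05-fold. The sign of this value came from mouse 1, whose within-mouse difference was -0.37, and without mouse 1 it was 0.0015. With voom on the recovered reads the interval of Ache ran from 0.821-fold to 1.02-fold. Bche was higher in the cocktail hemisphere of 5 of 6 mice, all but mouse 2. Its mean was 0.876 ± 0.138 FPKM (SD, n = 6) in the cocktail against 0.785 in control, a ratio of 1.12. The exact two-sided permutation test gave p = 0.15625 for Bche, where the smallest p that 6 mice allow is 0.03125, and the fit with no filter gave a log2 fold change of 0.07 (adjusted p = 0.772 from limma). Without mouse 1 the mean within-mouse difference was 0.05. The 95% interval of that fit runs from 0.982-fold to 1.12-fold on log2(FPKM + 1), a scale that understates the change of such a low gene.

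**Figure D3:**
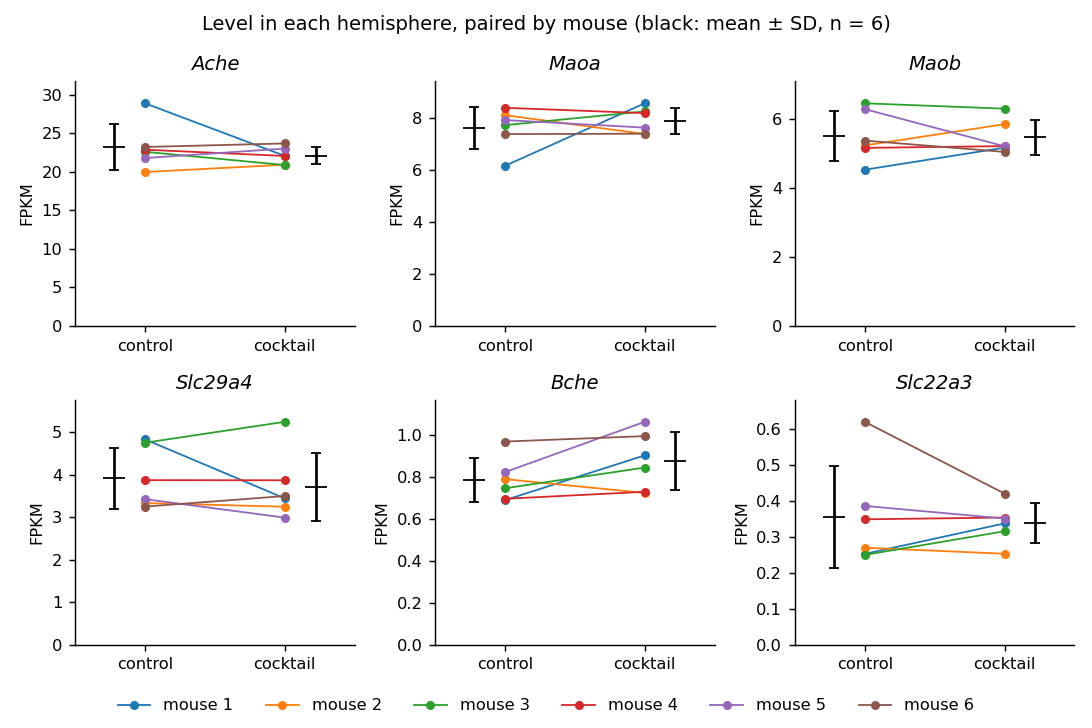
FPKM (y axis, from 0) of the 6 genes in the control and cocktail hemisphere of each mouse; each coloured line joins the hemispheres of 1 mouse, and black bars are mean ± SD of 6 libraries. The lines cross in every panel. Control mouse 1 is the highest control value of Ache (28.9 FPKM) and the lowest of Maoa (6.16 FPKM).

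Whether the cocktail altered the balance between genes of like function was tested on the ratio of FPKM + 1, on the log2 scale, within each library. For genes under 1 FPKM the sign of a small difference on this scale can depart from that of the plain FPKM ratio. It did so for Slc29a4 to Slc22a3 in mice 2 and 3. For Ache to Bche it did so in mouse 6, counted as higher below although the plain ratio went from 24.0 to 23.8. The Maoa to Maob ratio differed by 0.06 ± 0.184 (SD, 6 mice; higher in 4), the Slc29a4 to Slc22a3 ratio by -0.05 ± 0.249 (higher in 2) and the Ache to Bche ratio by -0.13 ± 0.228 (higher in 2). None of the 3 passed in the exact two-sided permutation test over sign flips, with p of 0.46875, 0.65625 and 0.25 and an adjusted p of 0.65625 for each. Without mouse 1 the differences were 0.02 for Maoa to Maob, 0.04 for Slc29a4 to Slc22a3 and -0.05 for Ache to Bche. With a pseudocount of 0.1 that of Ache to Bche was -0.20 (exact permutation test, p = 0.15625).

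No other gene of the pathways was called either. Of the 15 tested, 0 passed in limma and 0 in voom on the recovered reads, against 1.5% and 0.981% of all loci, and 2 had an unadjusted p under 0.05 in each fit, against 8.05% of all loci in limma and 11.2% in voom. Their median log2 fold change was 0.03, and 12 of 15 values lay above 0, as did 6550 of the 12032 loci tested. With median-of-ratios scaling it was 11 of 15, against 6028 of 12032 loci. With quantile normalization it was 10 of 15, against 5542 of 12032 loci, and without mouse 1 it was 9 of 15, against 5113 of 12043 loci. The highest value was that of Ddc, the decarboxylase that makes dopamine and serotonin from their precursors. Ddc had 1.17, 1.53 and 1.77 FPKM in control and 1.73, 1.82 and 2.02 FPKM in cocktail libraries as lowest, median and highest value, and was higher in 5 of 6 mice. Its log2 fold change was 0.20 (standard error 0.064), and its adjusted p from limma was 0.276, so it was not called. On scales that shrink low values less it was 0.30 (pseudocount of 0.1) and 0.28 (voom), likewise not called. Qdpr, which regenerates the cofactor of the hydroxylases that make monoamines, came next with 0.18 (standard error 0.077, adjusted p = 0.577 from limma). Its control value in mouse 1, 56.8 FPKM, lay under those of the other 5 mice, which began at 75.6 FPKM, and without mouse 1 its log2 fold change was 0.09. The lowest values were -0.07 for Aldh2 and -0.06 for Spr, which takes part in making the same cofactor (adjusted p = 0.801 and 0.841 from limma). Among the 15, breakdown genes other than the oxidases and cholinesterases lay between -0.07 and 0.05.

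**Figure D4:**
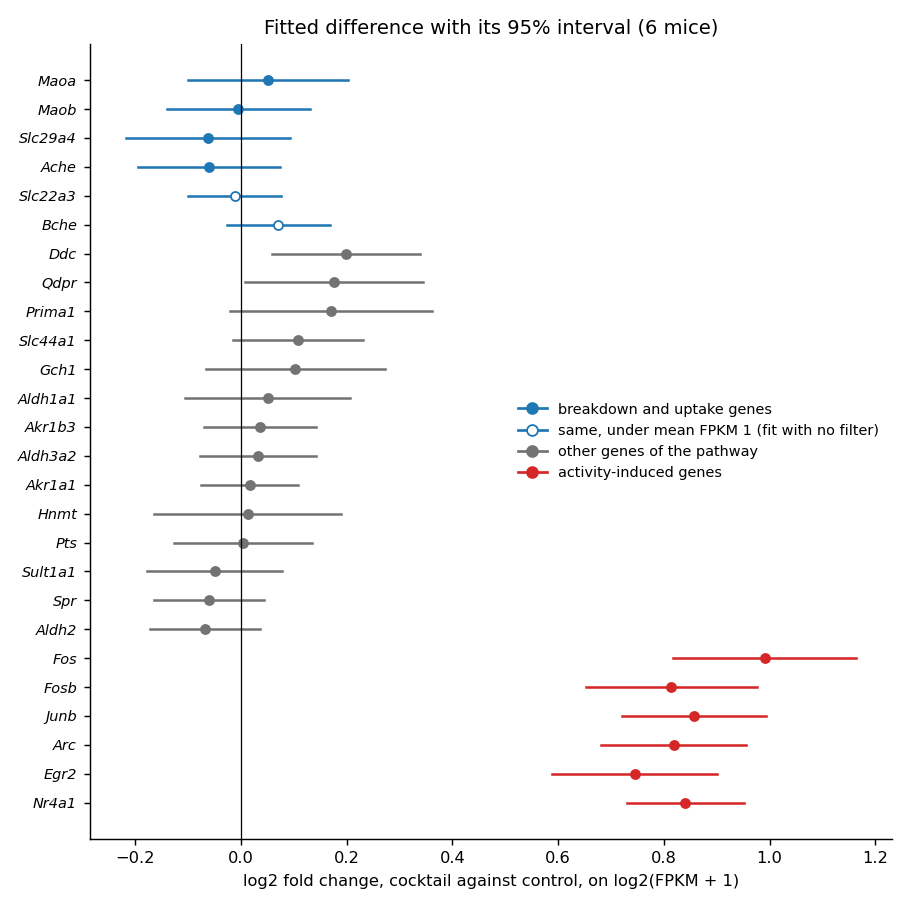
Log2 fold change of cocktail against control with its 95% interval (x axis) for the breakdown and uptake genes (blue, open symbols for the pair fitted with no filter), other pathway genes tested (grey) and 6 activity-induced genes (red). All blue intervals cross 0, whereas the red values lie between 0.74 and 0.99. The scale, log2(FPKM + 1), understates changes of the pair with open symbols.

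Levels of the 6 genes were compared with all loci tested across the 12 libraries, as a description of which transcripts varied alike; libraries of a mouse are not independent, and all share the deviation of control mouse 1. Maoa varied most like Gabrg1 and Snrpb2 (Pearson r on log2(FPKM + 1) of 0.943 and 0.942 over 12 libraries, 0.874 and 0.861 over the 10 libraries without mouse 1). Ache varied most like Tm2d3 and Rhbdd2 (0.945 and 0.939, and 0.851 and 0.872 without mouse 1). Maob was nearest to Pdia6 and Slco1c1 (0.920 and 0.897, and 0.913 and 0.850 without mouse 1), and Slc29a4 to Tesc and Cybrd1 (0.930 and 0.883, and 0.928 and 0.881). The low genes Slc22a3 and Bche were nearest to Cmtr1 and Ap1b1 (0.923 and 0.914, and 0.941 and 0.931 without mouse 1) and to Ddx56 and Prkdc (0.913 and 0.873, and 0.918 and 0.857). The highest of 12032 coefficients over so few libraries is large by selection, so these names describe the libraries at hand. Among the 6 genes themselves, the strongest relation was that of Maoa with Ache (r = -0.79 over 12 libraries), which was -0.38 over the 10 libraries without mouse 1. Maoa and Maob had an r of 0.39, and of 0.05 without mouse 1.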

How the data were processed

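Bulk poly-A RNA of 6 control and 6 cocktail hemispheres from the same 6 mice was sequenced with single reads of 50 bp in 1 lane. The authors screened out ribosomal RNA using BWA 0.6.1, mapped what remained to mm10 by TopHat 1.4.1 and estimated FPKM with Cufflinks 1.3.0, with bias correction. The FPKM values were used as deposited by the authors, with the library size already in the denominator. The authors also deposited a comparison made with HTSeq 0.6.1p1 and DESeq2 1.6.3, which holds mean counts, fold changes and p-values and was not used here. Groups and pairing follow the sample labels, which give the mouse of each library.

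The reads behind each FPKM were recovered from its interval (2 Poisson standard deviations); of 36299 values under 20 reads, 82.8% were whole to within 0.05. They cover counting error only. Libraries of a group differed by a chi-square of 7.79 to 42.6 per locus (30 pairs), so none was a copy of another.

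Loci whose FPKM averaged at least 1 were fitted on the scale log2(FPKM + 1). The fit used limma 3.58.1 (R 4.3.3) and held terms for treatment and mouse, a variance trend and Benjamini-Hochberg adjustment at 0.05 over all loci. The fit was tested on simulated data. Single genes and ratios were tested by exact two-sided sign-flip permutation over the 6 mice. Deviations from the group means had correlations of 0.216 to 0.406 between hemispheres of the same mouse (median 0.337, 6 pairs). Between different mice they ran from -0.420 to 0.445 (median -0.071, 30 pairs), so the ranges overlap and the medians differ. The mouse was kept as a block, as in the methods of the study. GC content was taken from the longest coding transcript in GENCODE M21 (96.3% of loci tested) and promoter windows from RefSeq. Python 3.11.15 and matplotlib 3.10.9 drew the figures. The alternatives were another pseudocount, other filters, scalings and variance models, no block, and leaving out each mouse.

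The 6 genes, the pathway list and the marker lists were chosen with earlier results of these data known. Named were the 6 genes, pathway genes called or else the 2 highest and 2 lowest of those tested, pathway genes under the threshold, the 2 loci that varied most like each gene, and 6 activity-induced genes. Other pathway levels printed were chosen after their values were seen. The counts cover the whole pathway list, of which 2 genes are not reported here by name. Protein sequences were not used here.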

Additional observations from a re-analysis of the deposited data

Results flagged for a closer look

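Of 33 sets of 6 values examined, 3 held an extreme value by Dixon's criterion, which chance meets in about 1 of 20 sets (1.65 here). For Ache in control, the value of mouse 1 was 28.9 FPKM, and the other 5 mice spanned 20.0 to 23.2, so that the gap made up 0.635 of the range. This is the library whose deviations moved with GC content. For Slc22a3 in control, mouse 6 stood at 0.619 FPKM and the others spanned 0.249 to 0.385 (gap 0.632 of the range). That value comes from 20 reads, and counting alone gives it an interval of 0.342 to 0.895 FPKM. For Aldh2 in the cocktail, mouse 2 stood at 25.2 FPKM and the others spanned 29.6 to 31.1 (gap 0.746 of the range). The causes were not tested.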

How the results depend on the processing

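None of the genes with a value, of the 6 and of the pathway list, was called under any of the 15 alternatives, 1 of which, the removal of each library's trend on GC content, was chosen after seeing the data. The number of loci called was 180; it was 88 with no replicate block, 118 with voom on the recovered reads, 218 with the GC trend removed and 104 to 183 when each mouse was left out (104 without mouse 4). The block changed no call among the 6 genes, the pathway genes and the 6 activity-induced genes, where both fits gave a value. With each mouse left out, the log2 fold change ranged from -0.022 to 0.085 for Maoa, from -0.038 to 0.040 for Maob, from -0.098 to 0.0041 for Slc29a4 and from -0.088 to 0.0015 for Ache. The direction turned without mouse 1 for Maoa (-0.022), Slc29a4 (0.0041) and Ache (0.0015), and for Maob without mouse 5 (0.040) and mouse 6 (0.0090). With the GC trend removed, the log2 fold changes were 0.02 for Maoa, -0.03 for Maob, -0.04 for Slc29a4 and -0.03 for Ache. With voom they were 0.11, -0.0076, -0.16 and -0.12 in the same order, further from 0 than in the fit on log2(FPKM + 1). Over all alternatives the adjusted p of these 4 genes was at least 0.531, that of Ddc between 0.182 and 0.537 and that of Qdpr between 0.345 and 0.999.

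With each mouse left out, which leaves too few mice for the exact permutation test to pass (smallest p = 0.0625), the changes of the ratios ranged from 0.02 to 0.12 (Maoa to Maob), -0.11 to 0.04 (Slc29a4 to Slc22a3) and -0.18 to -0.05 (Ache to Bche). The step from Maob to Slc29a4, 0.41 on the log2 scale in control, was 0.47 in the cocktail libraries and passed there (exact permutation test, adjusted p = 0.0312), and ranged from 0.35 to 0.51 when each control library was left out. With a pseudocount of 0.1, the mean within-mouse difference of Bche was 0.14 in place of 0.07. The mean FPKM filter of at least 5 left no value for Slc29a4. Depth limits what can be said of Slc22a3 (11 to 21 reads) and Bche (59 to 101 reads).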
